A study of Mus with 16 samples.

Results

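The heat shock chaperone *Hsph1* and 8 genes of the same protein-folding system were followed in forebrains of wild-type (WT) and *Kdm5c*-mutant mice. They are 9 of the 54219 genes in the count table, chosen by their Ensembl identifiers, and all 9 were among the 17866 genes that passed the filter on low counts. The group was assembled around *Hsph1* with earlier results of these data known, and which comparison drew attention to that gene is not recorded. *Hsph1* was called lower in the mutants of both sexes, so its mutant and WT values in either sex are given as a description, and the q printed beside them is not independent support.

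The animals were 16 mice at postnatal day 6 (P6), whose cortices and hippocampi were dissected together as forebrain for bulk poly(A) mRNA sequencing. They comprised 4 WT males, 4 *Kdm5c*-KO males (hemizygous for the knockout allele of this X-linked histone demethylase gene), 4 WT females, and 4 *Kdm5c*-HET females (heterozygous for it). The knockout allele lacks exons 11 and 12, which Cre recombinase removed, and was kept on a mixed strain background that includes C57BL/6J, and the animals came from 3 litters. In *Kdm5c*-HET females, cells that differ in which X chromosome is active are mixed in a bulk sample. The paper describes *Kdm5c* as a gene that escapes X inactivation, so cells of either kind can express the intact copy. It found *Kdm5c* higher in forebrains of WT females than of WT males.

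The animals carry a number and a letter, D or E, which the labels do not explain. The letter was D in 3 of 4 WT males, 2 of 4 *Kdm5c*-KO males, 2 of 4 WT females, and 1 of 4 *Kdm5c*-HET females. Totals ran from 21513783 to 30063352 counts per animal. Levels are given in counts per 1000000 counts of the library (CPM). Markers of neurons were not analysed here. Choroid plexus RNA was uneven. *Ttr*, the transthyretin gene that marks this tissue, was at 201 CPM in WT male 2D and 202 in 5D, at 181 in WT female 1D and 191 in 3D, and at 84.5 and 57.7 in *Kdm5c*-HET females 8E and 9E, against at most 5.6 in the other 10 animals.

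Heat shock proteins are molecular chaperones, which bind unfolded stretches of other proteins and release them in cycles driven by ATP. In the Hsp70 cycle a J-domain protein delivers the client and stimulates ATP hydrolysis, and a nucleotide exchange factor such as Hsph1 then resets the chaperone, while Hsp90 takes over a set of clients that includes kinases and steroid receptors. Heat shock factor 1 induces many of these genes when unfolded proteins accumulate, and neurons keep high levels of the constitutive forms.

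The members fall into 5 roles. *Hsph1* (ENSMUSG00000029657, chr5:149616843-149636498) encodes Hsp110, which acts as a nucleotide exchange factor for Hsp70. The stress-inducible Hsp70 proteins come from *Hspa1a* (ENSMUSG00000091971, chr17:34969359-34972156) and *Hspa1b* (ENSMUSG00000090877, chr17:34956429-34959238), which lie 10.1 kb apart, and the constitutive form Hsc70 from *Hspa8* (ENSMUSG00000015656, chr9:40801276-40805202). *Dnajb1* (ENSMUSG00000005483, chr8:83608175-83612653) encodes an Hsp40 J-domain partner. *Hsp90aa1* (ENSMUSG00000021270, chr12:110691036-110696395) and *Hsp90ab1* (ENSMUSG00000023944, chr17:45567778-45573261) encode the inducible and the constitutive cytosolic Hsp90. *Hspa5* (ENSMUSG00000026864, chr2:34772090-34776529) encodes BiP, the Hsp70 of the endoplasmic reticulum, and *Hsf1* (ENSMUSG00000022556, chr15:76477362-76501155) the transcription factor. Coordinates are RefSeq gene spans on GRCm38, the assembly that mm10 represents. 

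*Hspa1a* and *Hspa1b* have nearly identical coding sequences and only uniquely mapped reads were kept, so their counts are uncertain and come from the stretches in which they differ. *Hspa8*, *Hsp90aa1*, and *Hsp90ab1* also have closely similar copies elsewhere in the genome. The span of *Hspa8* holds the small nucleolar RNA genes *Snord14c*, *Snord14d*, and *Snord14e*, and that of *Hspa5* overlaps *Rabepk*. Whether strand was used in counting was not given in the sources used here, so reads of overlapping genes cannot be told apart. Levels are not per length and are compared between animals and not between genes.

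To see what the complete loss of *Kdm5c* does to the chaperone genes, *Kdm5c*-KO males were compared with WT males. *Hsph1* fell in the mutants, while the inducible *Hspa1a* and *Hspa1b* rose, and the 6 other members did not pass the test. Differences are given as Log2FC, the log2 fold change fitted with edgeR, and q is the Benjamini-Hochberg adjusted p over all 17866 genes, with a threshold of 0.1.

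*Hsph1* was at 227 CPM in WT male 2D, 251 in 5D, 242 in 7D, and 243 in 1E. In *Kdm5c*-KO males it was at 192 CPM in 4D, 189 in 6D, 196 in 2E, and 185 in 3E. All 4 mutants lay below all 4 WT males. The means were 240.8 ± 10.03 CPM (SD, n = 4) and 190.4 ± 4.59 CPM (SD, n = 4). The Log2FC was -0.34 with a standard error of 0.0389 and a 95% interval of -0.42 to -0.26, a level 0.791 times that of WT (q = 1.373e-05, edgeR). Among all genes tested this difference ranked 48 by its p-value, smallest first. In bulk tissue, fewer cells of a type that expresses a gene and less RNA per cell cannot be told apart.

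*Hspa1a* was at 1.94, 1.45, 1.48, and 1.80 CPM in WT males 2D, 5D, 7D, and 1E. It was at 3.23 CPM in *Kdm5c*-KO male 4D, 4.30 in 6D, 3.92 in 2E, and 2.72 in 3E. Every mutant was above every WT male, on 33 to 52 counts per WT male and 77 to 108 per mutant. The Log2FC was 1.08 with a standard error of 0.228 and a 95% interval of 0.61 to 1.56, a 2.12-fold level (q = 0.00913, edgeR).

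*Hspa1b* was at 1.05, 0.65, 0.76, and 1.11 CPM in WT males 2D, 5D, 7D, and 1E, and at 2.25, 2.59, 2.67, and 2.65 CPM in *Kdm5c*-KO males 4D, 6D, 2E, and 3E. The lowest mutant was above the highest WT male, on 55 to 75 counts against 17 to 28. The Log2FC was 1.51 with a standard error of 0.202 and a 95% interval of 1.09 to 1.93, a 2.85-fold level (q = 8.557e-05, edgeR). With the counts of the 2 near-identical genes summed before the fit, so that the split of reads between them does not matter, the Log2FC was 1.25 with a standard error of 0.171 (q = 0.000114, edgeR). The counts are few, and the spread between WT males was close to what counting gives, with an SD of 14.6% of the mean for *Hspa1a* where counting error is 15.5%, and 24.5% for *Hspa1b* where it is 21.3%. In the other groups the SD of *Hspa1a* was above counting error, at 19.9% against 10.5% in *Kdm5c*-KO males, 31.2% against 13.9% in WT females, and 20.3% against 12.1% in *Kdm5c*-HET females.

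**Figure D1:**
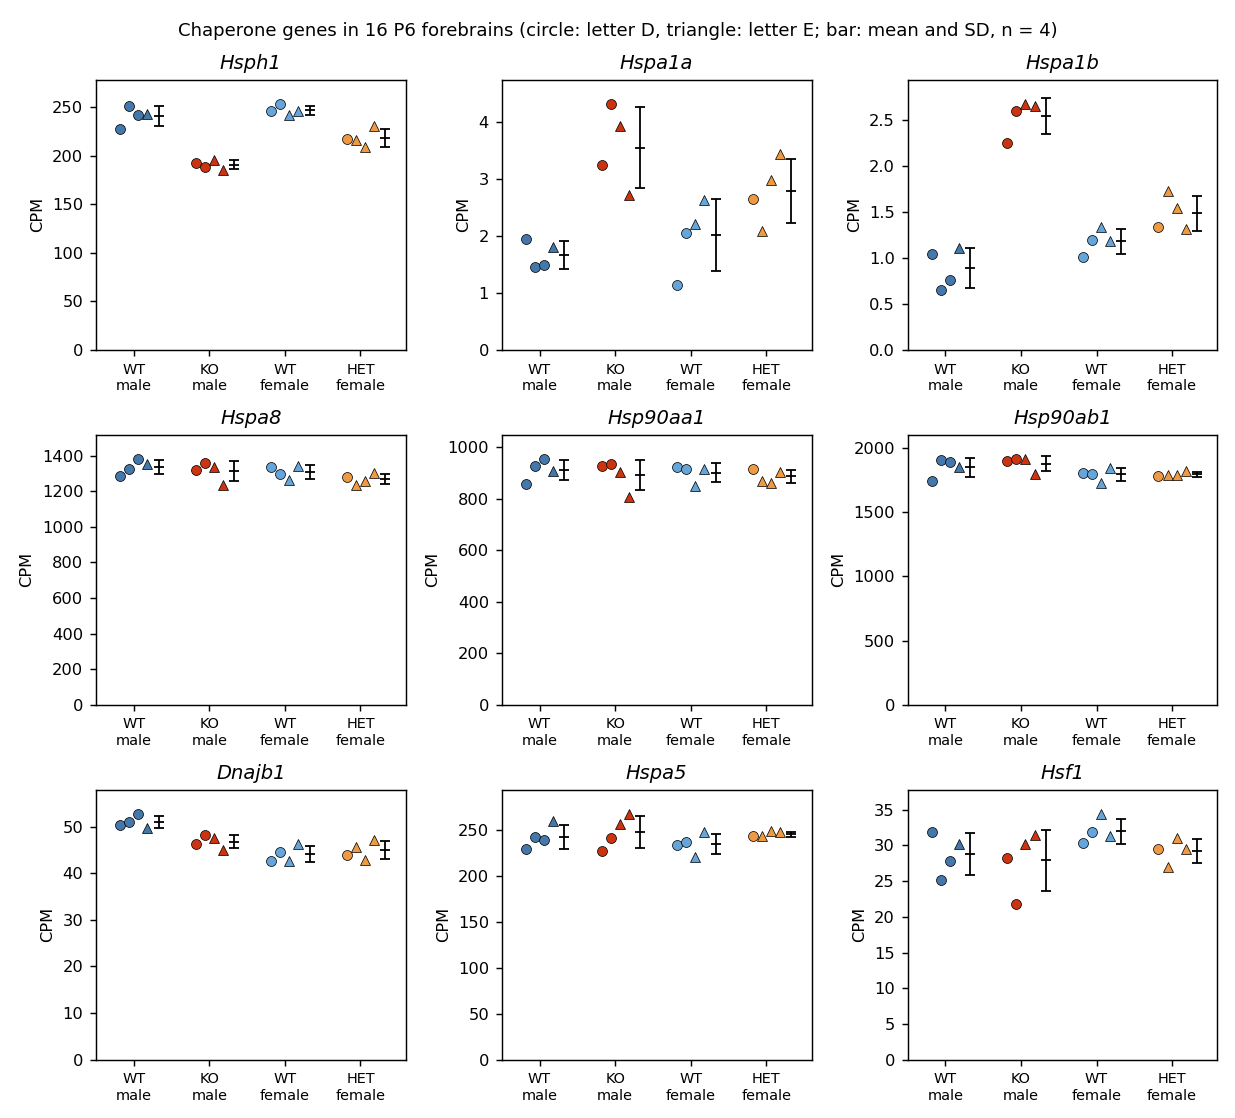
Level of each of the 9 genes in CPM (vertical axes, from 0) in the 16 animals by group, with circles for letter D, triangles for letter E, and bars for the mean and SD of 4 animals. *Hsph1* in *Kdm5c*-KO males lies at 185 to 196 CPM against 227 to 251 in WT males, and *Hspa1b* at 2.25 to 2.67 against 0.65 to 1.11.

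*Dnajb1* was at 50.3, 51.0, 52.7, and 49.8 CPM in WT males 2D, 5D, 7D, and 1E, and at 46.3, 48.2, 47.4, and 45.0 in *Kdm5c*-KO males 4D, 6D, 2E, and 3E. The groups did not overlap, with the mutants lower, but the Log2FC of -0.13 (standard error 0.0466) did not pass the test (q = 0.171, edgeR).

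The 5 other members overlapped between the male groups. *Hspa8* lay between 1284 and 1380 CPM in WT males and between 1237 and 1360 in *Kdm5c*-KO males, with a Log2FC of -0.02 and a 95% interval of -0.10 to 0.06. *Hsp90aa1* had a Log2FC of -0.03 (95% interval -0.13 to 0.07). *Hsp90ab1* had 0.02 (95% interval -0.06 to 0.10). The endoplasmic reticulum chaperone *Hspa5* had a Log2FC of 0.03 (95% interval -0.07 to 0.14), and *Hsf1* of -0.04 with a wider interval of -0.24 to 0.15. For 4 of these genes the interval leaves room for a change of at most 0.14 in either direction, smaller than the fall of *Hsph1*.

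Thus 2 members of 9 were called higher in *Kdm5c*-KO males, where 3.55% of all genes tested were, and 1 of 9 lower, where 1.69% were. At an unadjusted p under 0.05 stood 4 members, and 2939 of the 17866 genes tested. Groups without overlap were found for 2 members with the mutants higher, against 5.04% of all genes, and for 2 with the mutants lower, against 3.87%. The 2 higher members were in both cases the near-identical *Hspa1a* and *Hspa1b*. The split of reads between these 2 is uncertain, so they may not be separate signals. The median Log2FC of the 9 was -0.0232 and that of all genes -0.00724. The 9 were chosen with results of these data known, and the shares describe them only.

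**Figure D2:**
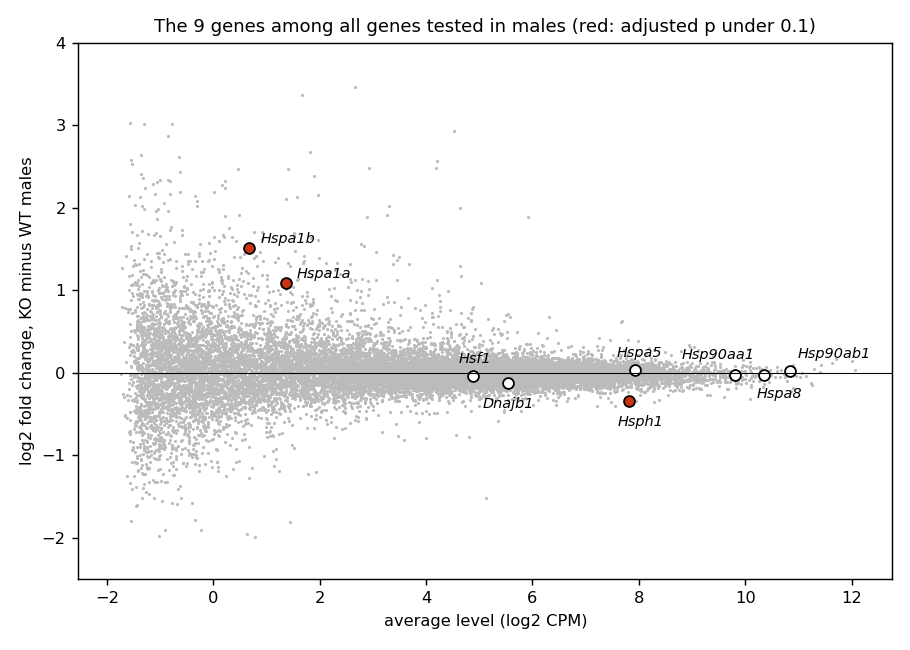
Fitted difference between *Kdm5c*-KO and WT males (vertical axis, log2 fold change) against average level (horizontal axis, log2 CPM) for the genes tested, in grey, with the 9 members circled and filled red where the adjusted p was under 0.1. The vertical axis runs from -2.5 to 4 and leaves out 10 of 17866 genes. *Hsph1* lies at a Log2FC of -0.34, and *Hspa1b* and *Hspa1a* lie at 1.51 and 1.08 among genes of low level.

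The inducible Hsp70 genes were also set against *Hsph1* within each male's library. In WT males there were 8.36 to 13.2 counts of *Hspa1a* and *Hspa1b* together per 1000 counts of *Hsph1*, and in *Kdm5c*-KO males 28.5 to 36.5. *Hsph1* itself stood at 175.5 to 189.7 counts per 1000 counts of *Hspa8* in WT males, and at 138.7 to 149.6 in *Kdm5c*-KO males. Such ratios within a library do not depend on how libraries are scaled, and neither pair of groups overlapped. Both ratios contain *Hsph1*, around which the set was chosen, so they are a description and not independent support.

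The letters divide the males into smaller sets. On the log2 CPM scale, *Kdm5c*-KO minus WT males gave -0.333 for *Hsph1* among animals of letter D (2 mutants, 3 WT) and -0.351 among those of letter E (2 mutants, 1 WT). *Hspa1b* gave 1.49 and 1.21, and *Hspa1a* 1.18 and 0.831. All 3 genes kept their direction within each letter, and with 1 WT male in letter E no test within it was made.

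Some markers of choroid plexus and blood were lower in *Kdm5c*-KO males. They could be matched only through a table of genes that the study called on these samples, so markers that did not change could hardly appear. *Hba-a1* had a Log2FC of -0.59 (q = 0.00131, edgeR), while *Hbb-bt*, at -0.57, did not pass (q = 0.112, edgeR). The summed level of the 2 choroid plexus markers that could be matched of 4 (*Ttr* and *Aqp1*) was 1.48 to 205 CPM in WT males against 1.98 to 2.82 in the mutants, and that of 4 blood markers of 5 (the globin genes *Hba-a1*, *Hba-a2*, *Hbb-bs*, and *Hbb-bt*) 118 to 146 and 66.1 to 107. None of the matched markers was at 0 in any animal. The 1 astrocyte marker that could be matched of 4, *Aqp4*, was at 149 to 167 CPM in WT males and 120 to 145 in the mutants. These groups did not overlap, but the Log2FC of -0.24 did not pass (q = 0.115, edgeR). In an alternative added after the data were seen, which left out WT males 2D and 5D with their high *Ttr*, the Log2FC of *Hsph1* was -0.35 (q = 0.000281, edgeR) and that of *Hspa1b* 1.44 (q = 0.00444, edgeR). That of *Hspa1a* was 1.11 and no longer passed (q = 0.111, edgeR). The part of blood RNA in the differences was not tested.

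*Kdm5c*-HET females, which keep an intact copy of the gene, were compared with WT females. *Hsph1* was at 245, 253, 241, and 246 CPM in WT females 1D, 3D, 4E, and 5E. In *Kdm5c*-HET females 9D, 6E, 8E, and 9E it was at 217, 216, 209, and 230 CPM. All heterozygotes lay below all WT females. The means were 246.3 ± 4.66 and 218.0 ± 8.89 CPM (SD, n = 4 each), a Log2FC of -0.18 with a standard error of 0.0387 and a 95% interval of -0.26 to -0.095. The q was 0.0511 (edgeR), which, as in males, may be a value by which *Hsph1* was singled out. When each female was left out in turn, q rose above 0.1 in 6 of 8 fits, to as much as 0.258 without *Kdm5c*-HET female 8E.

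Among letter D females the *Hsph1* difference on the log2 CPM scale was -0.195 (1 heterozygote, 2 WT), and among letter E females -0.16 (3 heterozygotes, 2 WT). Placed in order, the mean level of *Hsph1* was lowest in *Kdm5c*-KO males, then in *Kdm5c*-HET females, WT males, and WT females. The highest *Kdm5c*-KO male (196 CPM) was below the lowest *Kdm5c*-HET female (209 CPM), a difference that also crosses sex and was not tested. *Kdm5c*-HET females and WT males overlapped in range, and WT females did not differ from WT males beyond their spread (Log2FC 0.03, q = 0.704, edgeR).

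The inducible Hsp70 genes had mean levels in *Kdm5c*-HET females between those of WT females and of *Kdm5c*-KO males, at 2.78 ± 0.566 CPM (SD, n = 4) for *Hspa1a* and 1.48 ± 0.195 CPM (SD, n = 4) for *Hspa1b*. *Hspa1a* was at 1.14, 2.05, 2.21, and 2.63 CPM in WT females 1D, 3D, 4E, and 5E and at 2.64, 2.09, 2.97, and 3.43 in *Kdm5c*-HET females 9D, 6E, 8E, and 9E, a Log2FC of 0.48 with a 95% interval of 0.01 to 0.96. *Hspa1b* was at 1.01, 1.198, 1.33, and 1.18 CPM in the WT females and at 1.34, 1.73, 1.55, and 1.31 in the heterozygotes, a Log2FC of 0.33 with an interval of -0.09 to 0.75. The groups overlapped for each gene taken alone. The sum of both lay between 2.15 and 3.81 CPM in WT females and between 3.82 and 4.75 CPM in *Kdm5c*-HET females, with no overlap but hardly a gap. Fitted as a single gene, the sum had a Log2FC of 0.43 with a 95% interval of 0.07 to 0.78 and did not pass (q = 0.61, edgeR).

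Per 1000 counts of *Hsph1*, the females had 8.75 to 15.5 counts of *Hspa1a* and *Hspa1b* in WT and 17.7 to 21.7 in *Kdm5c*-HET. In both sexes this ratio contains the gene around which the set was chosen and is given as a description.

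**Figure D3:**
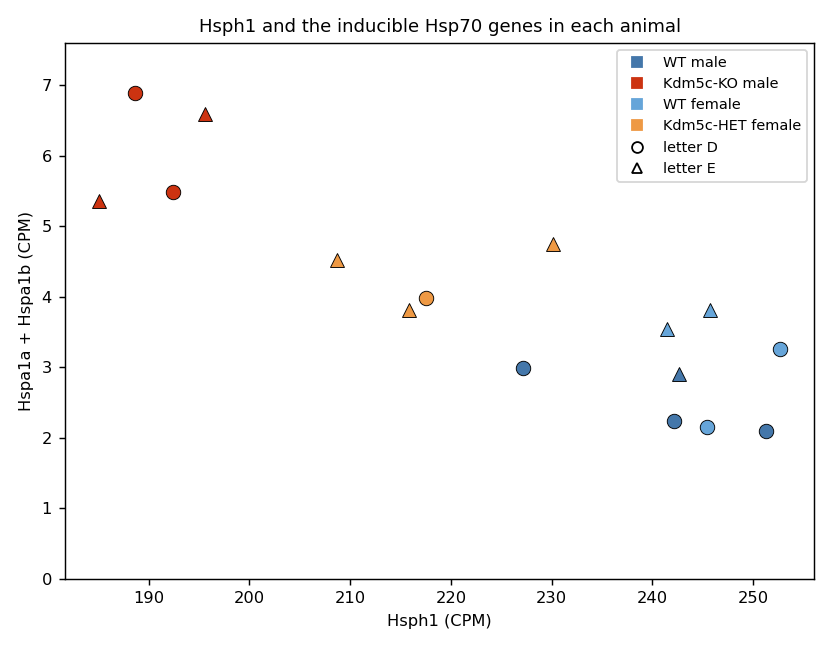
Level of *Hsph1* (horizontal axis, CPM, not starting at 0) against the summed level of *Hspa1a* and *Hspa1b* (vertical axis, CPM) in each of the 16 animals, coloured by group, with circles for letter D and triangles for letter E. *Kdm5c*-KO males lie at 185 to 196 CPM of *Hsph1* and 5.36 to 6.89 CPM of the sum, *Kdm5c*-HET females at 209 to 230 and 3.82 to 4.75, and the WT animals at 227 to 253 and 2.10 to 3.81.

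*Dnajb1* was at 42.7, 44.6, 42.6, and 46.2 CPM in WT females 1D, 3D, 4E, and 5E. It was at 43.9, 45.6, 42.8, and 47.2 CPM in *Kdm5c*-HET females 9D, 6E, 8E, and 9E, a Log2FC of 0.03. The ranges overlapped almost entirely. The 5 other members had Log2FC between -0.13, for *Hsf1*, and 0.06, for *Hspa5*, and overlapped between the female groups.

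In this contrast 1 member, *Hsph1*, was called lower, where 0.028% of all genes were. No member was called higher, where 91 of the 17866 genes tested were called in either direction, 5 of them lower and the rest higher. Groups without overlap were found for no member with the heterozygotes higher (2.78% of all genes) and for 1 with them lower (1.69%). Since *Hsph1* may have been chosen in this contrast, nothing is read from these shares. Leaving it aside, 0 of the other members were called by edgeR or by DESeq2, and *Hspa1a* alone of them had an unadjusted p under 0.05 with edgeR, as did 1159 of the 17866 genes tested.

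The difference between the male and the female response was fitted as an interaction of sex and genotype over all 16 animals. No member passed it, where 0.0392% of all genes did, and DESeq2 called none either. At an unadjusted p under 0.05 stood 3 members, *Hsph1*, *Hspa1b*, and *Dnajb1*, and 1138 of the 17866 genes tested. For *Hspa1b* the male response was larger by 1.18 on the log2 scale with a standard error of 0.286 (q = 0.406, edgeR). Over the alternative settings q ran from 0.171 to 0.600, the highest being that of *Hspa1a* and *Hspa1b* summed (Log2FC 0.82, edgeR). *Hsph1* differed by -0.16 with a 95% interval of -0.28 to -0.05 (q = 0.683, edgeR), and *Dnajb1* by -0.15 (q = 0.764, edgeR). The interaction holds the values of *Hsph1* in both sexes, so it is not independent of how that gene was found.

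**Figure D4:**
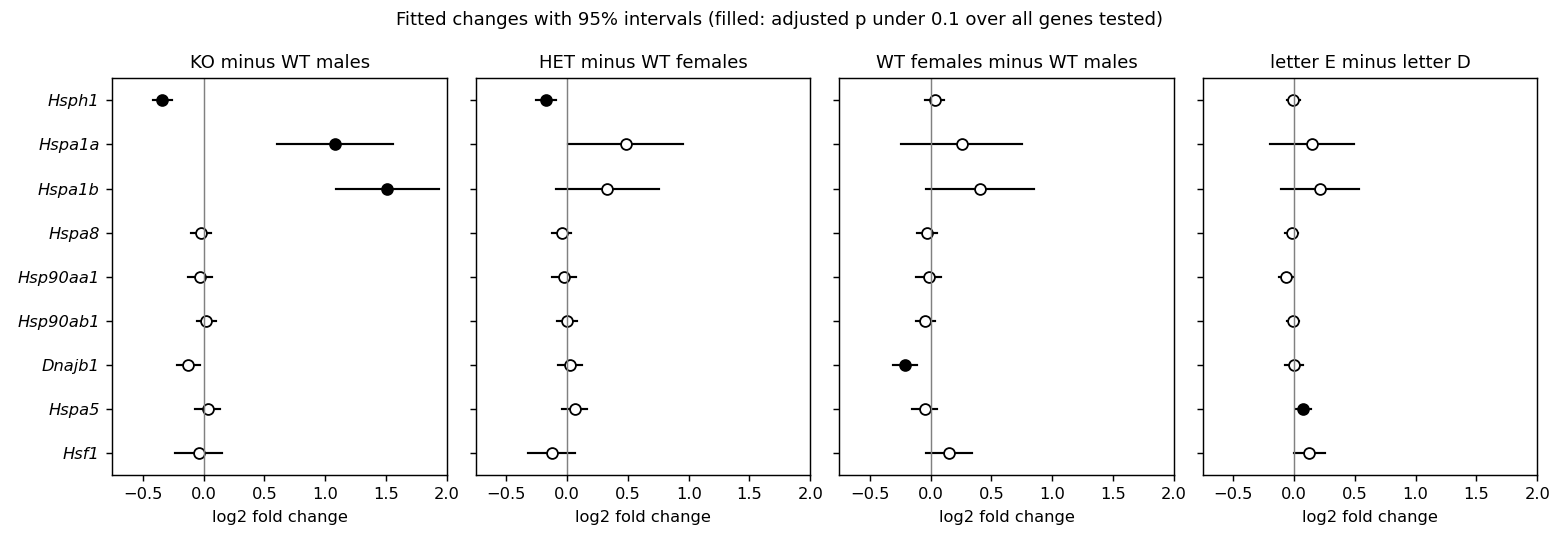
Fitted log2 fold change (horizontal axes) with 95% interval for each of the 9 genes in 4 comparisons, filled where the adjusted p over all genes tested was under 0.1. Filled points are *Hsph1* (-0.34), *Hspa1a* (1.08), and *Hspa1b* (1.51) in males, *Hsph1* in females (-0.18), *Dnajb1* between the sexes (-0.21), and *Hspa5* between the letters (0.08).

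Without a mutation, the sexes differed in 1 member. *Dnajb1* was lower in WT females, at 42.6 to 46.2 CPM, than in WT males, at 49.8 to 52.7 CPM, with no overlap. The means were 44.0 ± 1.72 and 50.9 ± 1.26 CPM (SD, n = 4 each). The Log2FC was -0.21 with a standard error of 0.0467 (q = 0.036, edgeR), and 2.41% of all genes were called lower in WT females. The call was lost without WT male 5D (q = 0.116, edgeR). The summed globin level was also lower in WT females, at 90.8 to 104 CPM against 118 to 146, and its part in the difference was not tested. *Dnajb1* in *Kdm5c*-KO males, at 45.0 to 48.2 CPM, lay between both WT groups in mean and overlapped the WT females.

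The other members did not pass the test between the sexes. The widest differences were those of *Hspa1b* (0.40, 95% interval -0.04 to 0.85) and *Hspa1a* (0.25, 95% interval -0.24 to 0.75), both with few counts. The median Log2FC of the members was -0.0163, and that of all genes 0.000422.

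Between the letters, with the groups as terms in the fit, *Hspa5* was called higher in letter E by 0.08 with a standard error of 0.0301 (q = 0.0888, edgeR), where 11.6% of all genes were called higher. With each animal left out in turn, 11 of 16 fits no longer called it. *Hspa5* was at 230 to 243 CPM in WT males of letter D and at 261 CPM in the 1 of letter E, and at 228 and 242 CPM in *Kdm5c*-KO males of letter D and at 257 and 268 in those of letter E. In WT females the letters overlapped, with 235 and 238 CPM in letter D and 221 and 248 in letter E, and the 4 *Kdm5c*-HET females lay between 243 and 249 CPM. *Hsp90aa1* was lower in letter E by a fitted value of -0.07 and did not pass (q = 0.129, edgeR). *Hsph1* had a difference of -0.01 between the letters, with a 95% interval of -0.06 to 0.05.

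The SD of log2 CPM within groups was 0.0424 for *Hsp90ab1*, 0.0457 for *Hspa8*, 0.0475 for *Hsph1*, and 0.0502 for *Dnajb1*, against a median of 0.143 over all genes tested. It was 0.0682 for *Hsp90aa1*, 0.0726 for *Hspa5*, and 0.15 for *Hsf1*. The sparse *Hspa1b* (0.212) and *Hspa1a* (0.339) varied most. Since the SD falls with level, each was also set beside the median of genes within 1 log2 unit of its own level. *Hsph1* (median 0.0646), *Hspa8* (0.0666), *Hsp90ab1* (0.0672), *Dnajb1* (0.0853), and *Hspa1b* (0.356) were below that median. *Hsp90aa1* (0.0631), *Hspa5* (0.0641), *Hsf1* (0.099), and *Hspa1a* (0.286) were above it. The male differences of *Hsph1*, *Hspa1a*, and *Hspa1b* were each larger than the within-group SD of that gene.

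The way the members varied together within groups was described by correlating their log2 CPM over the 16 animals after subtracting each group's mean. The animals share litters and depth, and 36 pairs of members were computed. The highest values among them joined *Hspa8* and both cytosolic Hsp90 genes, with Pearson's r of 0.899 (Spearman's rho 0.812) for *Hspa8* and *Hsp90aa1*, 0.844 (rho 0.624) for *Hsp90aa1* and *Hsp90ab1*, and 0.823 (rho 0.753) for *Hspa8* and *Hsp90ab1*. Without the 2 animals farthest from the median these values of r were 0.797, 0.74, and 0.684. 

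*Hsph1* was most alike to *Hsp90ab1* among the members (r = 0.719, rho 0.679, and r = 0.629 without the 2 farthest animals). It had r = -0.545 with *Hspa1b* (rho -0.494) and 0.0454 with *Hspa1a* (rho 0.0412). Of all 17865 other genes, the 2 most alike to *Hsph1* were ENSMUSG00000024513 (r = 0.855) and ENSMUSG00000046186 (r = 0.85), which have no symbol in the tables used here, and *Hsp90ab1* ranked 31.

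Beyond the 9 members, 55 genes of chaperone families and heat shock regulators were listed, of which 5 could be matched to an identifier and the others were not analysed here. The matches come from a table of genes that the study called on these same samples, so they are not independent evidence of a change. In *Kdm5c*-KO males 3 of the 5 were called higher, beside 3.55% of all genes, and 1 lower, beside 1.69%, and nothing is read from these counts, since the table holds called genes.

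*Hsf4*, a heat shock factor known for its role in the lens, was at 0.314 to 0.822 CPM in WT males and at 1.19 to 1.82 in *Kdm5c*-KO males, a Log2FC of 1.48 (standard error 0.287, q = 0.00495, edgeR) on 7 to 45 counts. *Hspb1*, the small heat shock protein Hsp27 in humans, was at 0.517 to 1.06 CPM in WT males and at 1.15 to 1.67 in *Kdm5c*-KO males, a Log2FC of 0.86 (q = 0.0928, edgeR). *Hspa12b*, a distant Hsp70 relative of endothelium, had overlapping ranges of 8.11 to 9.90 and 9.78 to 13.8 CPM and a Log2FC of 0.35 (q = 0.0907, edgeR).

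*Hspbp1*, whose product promotes nucleotide exchange on Hsp70 as Hsph1 does, was at 78.5 to 89.9 CPM in WT males and at 73.8 to 75.9 in *Kdm5c*-KO males, a Log2FC of -0.16 (q = 0.0692, edgeR). It was also lower in WT females than in WT males (-0.15, q = 0.0925, edgeR). *Dnaja2*, a J-domain partner of Hsc70, was at 153 to 162 CPM in WT males, and its 135 to 147 CPM in the mutants gave a Log2FC of -0.12 that did not pass (q = 0.116, edgeR). In *Kdm5c*-HET females none of the 5 was called, and the Log2FC ranged from -0.03 for *Dnaja2* to 0.68 for *Hsf4*.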

How the data were processed

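The authors purified total RNA from 16 P6 forebrains, made directional poly(A) libraries, sequenced read pairs, aligned them to mm10 with STAR 2.5.3a, removed duplicates, kept uniquely mapped reads, and deposited raw gene counts from featureCounts (Subread 1.5.0). Isolation, library preparation, and sequencing were stated to be a single batch. Totals were 21513783 to 30063352 counts per animal, and *Hspa1a* and *Hspa1b*, with 17 to 108 counts per animal, are the least precise.

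Here the counts were fitted with edgeR 4.0.16 (R 4.3.3, quasi-likelihood test, TMM scaling, edgeR's filter on low counts), with 1 mean for each of 4 groups over all 16 animals, and for the letters with the letter added. The p-values were adjusted over 17866 genes by the Benjamini-Hochberg method, with a threshold of 0.1 as in the study. Animals of a group are separate mice. Alternatives were DESeq2 1.42.0 and its size factors, no filter or a minimum of 10 counts, each sex alone, the letter as a covariate, a threshold of 0.05, *Hspa1a* and *Hspa1b* summed, and each animal left out. CPM use TMM-scaled totals, and log2 CPM a prior count of 2. The code was tested on simulated data. The members and lists were chosen with earlier results of these data known. Named are all 9 members, the matched chaperone-family genes, called genes of the other response lists (at most 6 per comparison by q), and, of the 10 genes most alike to *Hsph1*, the first 2. Same-group pairs of libraries differed by more than sampling noise in all 24 pairs (chi-square per gene 2.77 to 13.9).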

Additional observations from a re-analysis of the deposited data

Results flagged for a closer look

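Over the 9 genes and 4 groups, 36 sets of 4 animals were examined for an animal far from the others, and 2 held one. *Hsp90aa1* was at 848 CPM in WT female 4E, while the other 3 WT females lay between 916.3 and 924 CPM. *Hsp90ab1* was at 1790 CPM in *Kdm5c*-KO male 3E, while the other 3 lay between 1894 and 1911 CPM. Chance marks about 1 in 20 such sets. Neither gene was called between the genotypes in either sex, with or without the animal.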

How the results depend on the processing

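Among 296 values of Log2FC under alternative settings, 291 stayed on the same side of the threshold with no reversal of a called value, and 6 values that were never called changed sign. Leaving out each animal in turn gave 504 values, of which 482 stayed on the same side and 0 reversed. In *Kdm5c*-KO males 3 members were called in every such fit, with Log2FC of *Hsph1* from -0.365 to -0.315.

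*Hsph1* in *Kdm5c*-HET females lost its call when the 8 females were fitted alone (-0.1756, q = 0.108, edgeR) and at a threshold of 0.05 (-0.1762), so that 0 members were then called. It kept its call with the letter as a covariate (q = 0.0187, edgeR) and with DESeq2 (q = 0.00281). Without 1 animal it ranged from -0.203 to -0.1588, and members called from 0 to 1. Members called between the sexes ranged from 0 to 1 and between the letters from 0 to 2. Between the letters 2 were called with no filter on low counts (*Hsp90aa1* added, q = 0.0349, edgeR) and 0 at a threshold of 0.05. Without WT males 2D and 5D, chosen after the data were seen, 2 members were called in males, *Hspa1a* being lost (1.108, q = 0.1114, edgeR). Fewer animals enter the fits without some animals, and beyond that and the threshold itself the cause was not tested. No paired analysis was possible because the replicate names are unique to each animal. The intervals of *Hspa1a* and *Hspa1b*, which have few counts, are several times as wide as that of *Hsph1*. For *Hspa1a* the spread between animals was also above counting error in all groups but WT males.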

Other observations

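Of further lists of genes that respond to stress or daily time, few members could be matched to an identifier, all through the table of genes the study called on these samples. *Cdkn1a*, a cell cycle inhibitor that glucocorticoids can induce, was at 28.5 to 42.6 CPM in WT males and 47.5 to 57.2 CPM in *Kdm5c*-KO males, a Log2FC of 0.48 (q = 0.00618, edgeR). *Nr1d1*, a clock repressor, had a Log2FC of -0.33 in males (q = 0.0934, edgeR) and was lower in letter E than in letter D by a fitted value of -0.27 (q = 0.000696, edgeR). Between the letters 4219 of the 17866 genes tested were called in either direction, so such a call is common. No member of the lists of endoplasmic reticulum stress genes, cold-inducible genes, or immediate early genes could be matched, and they were not analysed here.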
